A study of Mus musculus with 4 samples.

Results

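The glycosyltransferases described here are the enzymes that build the sugar chains of mucins, other glycoproteins and glycolipids. They were chosen by gene name, as every measured gene whose symbol begins with Galnt, St3gal, St6gal, St8sia, B3gnt, B3galt, B4galt, Gcnt, or Fut with a digit after it. The rule found 72 of 18193 measured genes, with 154 probe sets, the groups of short oligonucleotides that each report on a transcript. Each gene was represented by its probe set with the highest mean over the 4 arrays. The rule read names and not the contrast between groups. RefSeq lists 73 protein-coding mouse genes with such names, of which Galnt17 and Gcnt4 had no probe set here, and Fut4-ps1, a transcribed pseudogene, was measured in addition.

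The samples were crypt epithelium of the mouse jejunum, taken off with EDTA and put through a filter of 70 um, from mice of the strain label C57BL/6J enriched. Knockout mice were YY1f/f; Vil-Cre-ERT2, in which tamoxifen switches on a Cre recombinase driven by the villin promoter of intestinal epithelium and deletes the gene of the transcription factor YY1. Tamoxifen was given for 4 days. The other group is labelled control, with its alleles not given in the sources used here, and all 4 arrays carry the same treatment label. Whether controls carried Cre or received tamoxifen is not clear from it, and effects of either cannot be told apart from those of the Yy1 deletion. Each group had 2 arrays, which the titles call biological replicates.

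Values are intensities as deposited. Group means are given ± SD (n = 2 arrays), and differences are knockout minus control on log2(intensity + 16), ± SE of the limma fit across all genes. A gene was called at a Benjamini-Hochberg adjusted p under 0.05 over all 18193 genes. Yy1 fell from 1664 ± 23.4 to 68.7 ± 0.940, which bears on the group labels, although the place of its probe set relative to the deleted part was not analysed here. Median intensities were 138.7 to 142.9. The median of 27 control probe sets for Bacillus genes, whose transcripts mouse cells lack, was 31.9 to 35.6 and served as a measure of background. A gene with both group means under 64 is called dim here. The Paneth lysozyme Lyz1 (10761 to 12081 in the 4 arrays) and the goblet mucin Muc2 (3051 to 4167) were bright, while the stem cell gene Lgr5 was weak at 59.5 to 69.2.

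Mucins are proteins whose serines and threonines carry dense O-linked sugar chains. GalNAc-transferases (Galnt genes) attach the first sugar, further enzymes turn it into core structures, galactose and GlcNAc are then added in turn, and fucose and sialic acid cap the ends. In the jejunum such chains line both the goblet cell mucus and the glycocalyx of the absorptive cell's brush border. Glycolipids of the epithelium begin with glucosylceramide, to which a galactose is added to give lactosylceramide, the parent of gangliosides.

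In knockout crypts the capping and galactose-adding enzymes held the largest falls, and the largest rises were smaller. The sialyltransferase St3gal4 fell 3.38-fold and the lactosylceramide synthase gene B4galt5 fell 2.69-fold, followed by St3gal6 (1.98-fold), B4galt6 (1.87-fold), the GalNAc-transferase Galnt6 (1.68-fold) and the core 3 synthase gene B3gnt6 (1.52-fold, near background and not called without control replicate 1). B3galt6 and B3gntl1 each rose 1.69-fold, Galnt3 1.60-fold and Galnt11 1.51-fold, the last with its brightest probe set, while its other probe set was called lower (-0.50). Of the 72 genes, 13 fell and 5 rose, against 10.9% of all genes called lower and 13.4% called higher. The shares of the 72 were 18.1% and 6.94%. Over the 72 genes the median log2 difference was -0.09, beside 0.01 over all genes. The groups did not overlap in 45 of the 72, a share of 62.5% near the 62.0% of all genes. All 18 called members were among the 45, which largely follows from the call itself with 2 arrays a group.

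**Figure D1:**
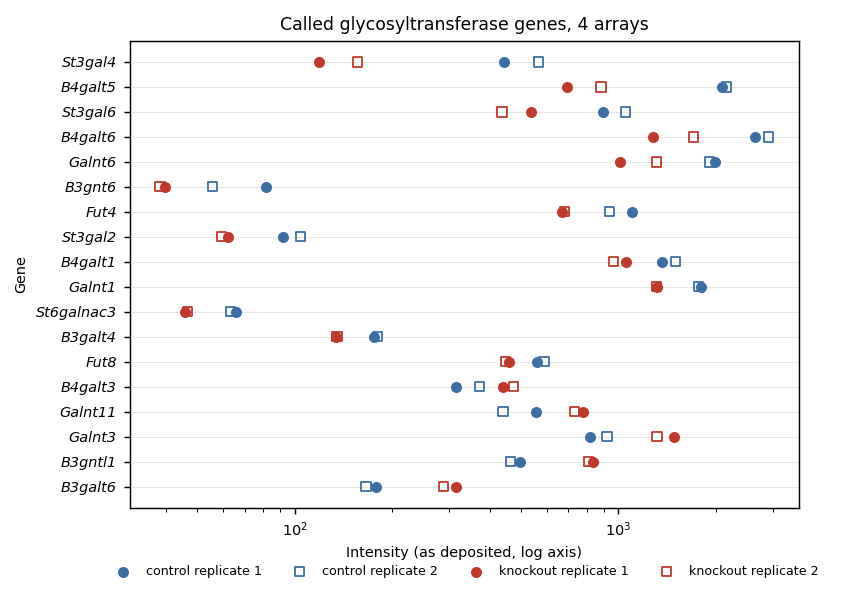
Intensity on a log axis of the 18 called glycosyltransferase genes in each of the 4 arrays, with control arrays in blue, knockout arrays in red, circles for replicate 1 and open squares for replicate 2. For the 13 genes that fell both red symbols lie left of both blue ones, and for the 5 that rose both lie right of them.

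With 1 array left out in turn, limma counted 7 lower members when either control array was omitted, 8 when knockout replicate 1 was and 9 when knockout replicate 2 was. Higher members numbered 4 with control replicate 1 omitted, 3 with control replicate 2 or knockout replicate 1 omitted, and 5 with knockout replicate 2 omitted. Calls over all genes dropped in the same fits, from 1992 lower to 1032, 1047 and 1275 and from 2442 higher to 1321, 1139 and 1459 with control replicate 1, control replicate 2 and knockout replicate 1 omitted. With knockout replicate 2 omitted, 2046 genes were lower and 2293 higher. St3gal4, B4galt5, St3gal6, B4galt6, Galnt6, B3galt6, B3gntl1 and Galnt3, 8 of the 18, were called in all 4 of these fits. None of the 18 changed sign in them. Galntl6 and B3galt2, not called with all arrays, are among the counts without knockout replicate 2.

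**Figure D2:**
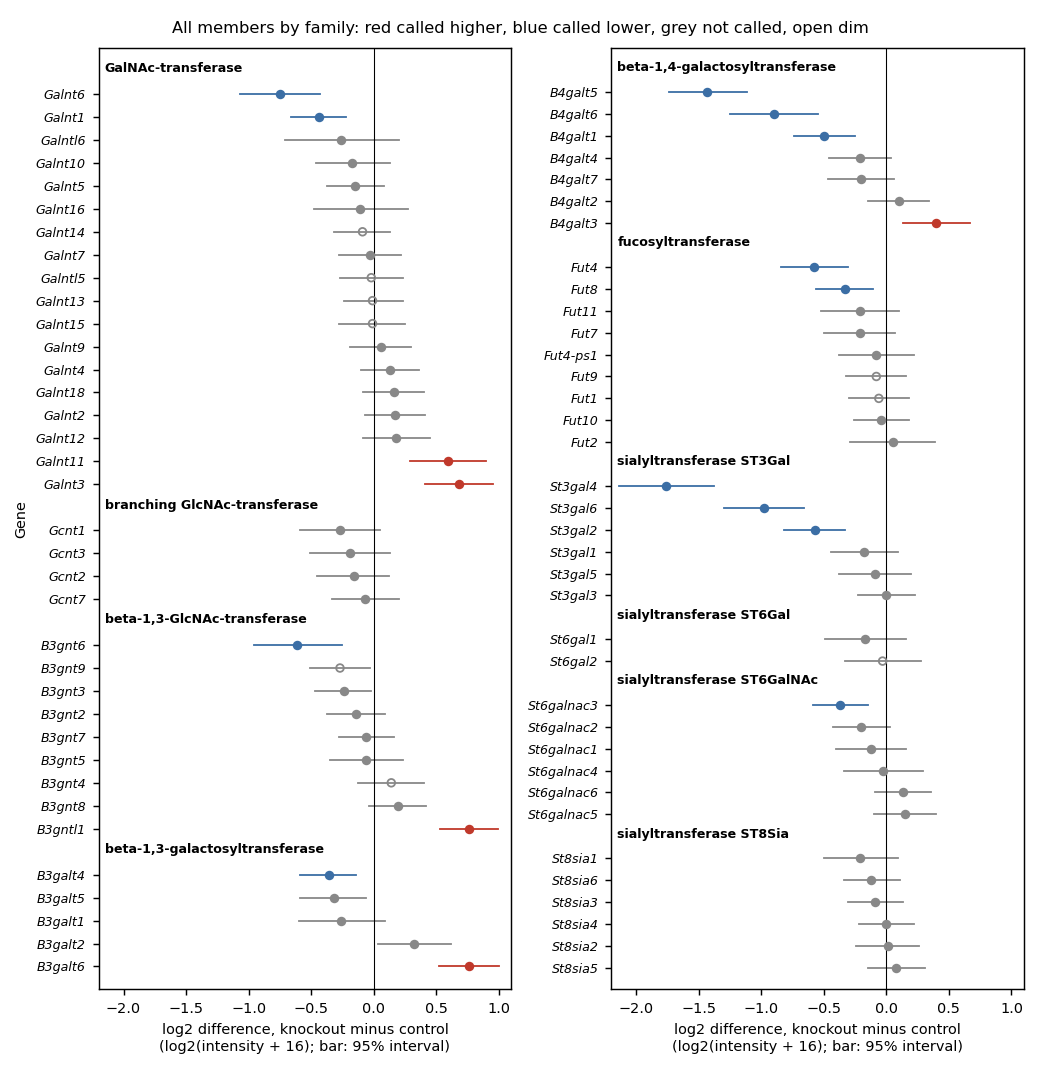
log2 difference (knockout minus control) of all 72 genes by enzyme family, with the 95% interval of the limma fit as a bar. Red marks genes called higher, blue genes called lower, grey genes not called and open circles dim genes; the 54 genes not called, grey or open, lie between -0.32 and 0.32.

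Sequences of a few start regions are shown because of what the study deleted: YY1 binds DNA, and its motif was searched as AANATGGC on both strands in RefSeq promoters (250 bases before to 50 after a gene's start, GRCm38.p6). Such windows were at hand for 52 of the 72 genes. B4galt3, which rose, was the one member with a match, or 1 of 71 member windows (1.41%), while 6.72% of the windows of measured genes and 6.05% of all windows held one. Its window is chr1:171270078-171270377 on the plus strand, and the match, in capitals, begins 24 bases after the start. The windows of B4galt5 (chr2:167349129-167349428, minus strand) and St3gal4 (chr9:35116815-35117114, minus strand), the members with the largest falls, are set beside it and hold no match. Their bases are G or C in 75% and 74%, against 59.7% for B4galt3 and a median of 52.7% over all windows.
B4galt3: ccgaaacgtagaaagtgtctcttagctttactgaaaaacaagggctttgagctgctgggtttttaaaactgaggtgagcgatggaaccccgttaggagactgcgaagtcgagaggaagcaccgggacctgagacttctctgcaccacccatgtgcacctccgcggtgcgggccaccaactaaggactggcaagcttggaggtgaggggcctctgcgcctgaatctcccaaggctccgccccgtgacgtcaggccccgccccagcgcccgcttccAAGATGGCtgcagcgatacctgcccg
B4galt5: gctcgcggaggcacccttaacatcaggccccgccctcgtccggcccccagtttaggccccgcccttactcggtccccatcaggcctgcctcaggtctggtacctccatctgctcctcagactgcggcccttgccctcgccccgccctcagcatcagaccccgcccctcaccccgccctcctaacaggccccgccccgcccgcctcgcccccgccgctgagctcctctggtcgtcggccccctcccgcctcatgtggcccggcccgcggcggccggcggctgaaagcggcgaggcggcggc
St3gal4: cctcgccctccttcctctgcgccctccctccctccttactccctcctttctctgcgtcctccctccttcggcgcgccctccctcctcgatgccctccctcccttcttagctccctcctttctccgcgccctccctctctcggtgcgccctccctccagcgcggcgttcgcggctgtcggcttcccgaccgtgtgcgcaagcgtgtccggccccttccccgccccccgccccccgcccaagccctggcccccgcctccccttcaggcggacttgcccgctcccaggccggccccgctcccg
A match describes letters in these windows, and its absence says nothing of YY1 binding.

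Galnt genes start the O-linked chain, and of the 18 measured 2 rose, 2 fell and 14 were not called. The shares were 11.1% each, beside 13.4% higher and 10.9% lower over all genes. Galnt6, an epithelial enzyme of this first step, had 1989 and 1916 in the control arrays and 1015 and 1314 in the knockout arrays. Both knockout arrays were low, the first more so, and the difference was -0.75 ± 0.14 (adjusted p = 0.00843). Galnt1, a broadly expressed member, went from 1798 and 1772 to 1314 and 1312. Replicates lay close together and the groups stood apart (-0.44 ± 0.09, adjusted p = 0.0151), but the call was lost without control replicate 1, control replicate 2 or knockout replicate 1, with adjusted p up to 0.0897. The other probe set of Galnt1 gave -0.45 ± 0.10.

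Galnt3, known for glycosylating the phosphate hormone FGF23, read 817 and 922 in control and 1487 and 1316 in knockout arrays. Both knockout arrays were above both controls, with a difference of 0.68 ± 0.11 (adjusted p = 0.00636). Its weaker probe sets gave 0.46 ± 0.10, also called, and 0.42 ± 0.17, not called. Galnt11 had 555 and 439.9 in control and 779 and 731 in knockout arrays (0.59 ± 0.13, adjusted p = 0.0164). Its other probe set went the opposite way, from 191 ± 12.7 to 130.3 ± 1.56 (-0.50 ± 0.10), and was itself called lower over all probe sets, so the direction of this gene depends on the probe set. The rise of the brighter probe set was also lost without control replicate 2 or knockout replicate 1, with adjusted p up to 0.0973.

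Several Galnt enzymes act on peptides that already carry a GalNAc, among them Galnt4, Galnt7, Galnt10 and Galnt12. None of these passed the threshold. Galnt4 read 1736 and 1863 in control and 2004 and 1944 in knockout arrays (log2 0.13, 95% interval -0.10 to 0.36). Galnt7 read 1424 and 1588 against 1429 and 1519, with overlapping groups (-0.03, interval -0.28 to 0.22). For Galnt10 the knockout arrays lay apart from each other at 434 and 539, with controls at 564 and 528 (-0.17, interval -0.46 to 0.13), and Galnt12 had 0.18 (interval -0.09 to 0.45). Galnt2, another enzyme of the first step, gave 0.17 (interval -0.07 to 0.41), while its second probe set was called lower, from 309.9 ± 13.0 to 218 ± 11.3 (-0.48 ± 0.10, adjusted p = 0.0171 over all probe sets). Galnt13, Galnt14, Galnt15 and Galntl5 were dim, between 25.1 and 64.9. Galnt5, Galnt9, Galnt16, Galnt18 and Galntl6 lay between -0.26 and 0.16. Of these Galntl6 read 39.3 in knockout replicate 1 and 64.8 to 69.5 in the other 3 arrays, and without knockout replicate 2 it was called lower (-0.57, adjusted p = 0.0168).

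Branching GlcNAc-transferases (Gcnt genes) open a second arm on the O-glycan core or, for Gcnt2, on a galactose chain. None of the 4 measured was called, and all 4 differences lay between -0.27 and -0.07. Gcnt3, the mucin-type core 2 and core 4 enzyme of the gut, read 1132 and 1400.5 in control and 1192 and 1018 in knockout arrays. Its groups overlapped, and the interval ran from -0.51 to 0.13. Gcnt2, which makes I branches, had 1634 and 1797 against 1394 and 1674, also overlapping (interval -0.45 to 0.12). Gcnt1 went from 153 ± 28.8 to 123 ± 6.19, with an interval of -0.59 to 0.05.

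The beta-1,3-GlcNAc-transferases (B3gnt genes) start the core 3 chain and extend galactose chains. Of 9 genes with such symbols B3gntl1 rose and B3gnt6 fell (11.1% each, beside 13.4% higher and 10.9% lower over all genes). B3gntl1 is placed here by its symbol only, which does not establish either activity for it. B3gnt6, the core 3 synthase gene of colonic mucin, read 81.7 and 55.8 in control and 39.8 and 38.3 in knockout arrays. The knockout level lay just above the Bacillus medians, and the controls differed among themselves, so the size of the fall (-0.61 ± 0.15, adjusted p = 0.0268) is loosely fixed. The difference was -0.38 without control replicate 1 and -0.83 without control replicate 2. It was not called without control replicate 1, knockout replicate 1 or knockout replicate 2, with adjusted p up to 0.121. B3gntl1 read 495 and 465 in control and 836 and 809.5 in knockout arrays. The groups were far apart relative to their replicates (0.76 ± 0.10, adjusted p = 0.00259), and its weaker probe set gave 0.27 ± 0.12, not called.

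B3gnt3, which extends core 1 chains, had 1471 and 1395 in control and 1229 and 1185 in knockout arrays. Its interval of -0.47 to -0.02 left out 0, but the adjusted p was 0.117. B3gnt2, the main enzyme of poly-lactosamine chains, gave -0.14 (interval -0.37 to 0.09) and B3gnt7, which builds keratan sulfate chains, -0.06 (interval -0.28 to 0.16). The glycolipid enzyme gene B3gnt5, whose product starts the lacto-series, read 152 and 132 in control and 149 and 124 in knockout arrays, with overlapping groups. B3gnt8 gave 0.19, and B3gnt4 and B3gnt9 were dim.

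Galactosyltransferases of the B4galt family held both of the known lactosylceramide synthases, and both fell. B4galt5 read 2098 and 2161 in control and 692 and 884 in knockout arrays. The knockout arrays were far below the controls, the first more so (-1.43 ± 0.13, adjusted p = 0.00101), and the second probe set gave -1.32 ± 0.16. B4galt6 read 2652 and 2917 in control and 1284 and 1711 in knockout arrays, again with no overlap (-0.90 ± 0.15, adjusted p = 0.00598). All 4 probe sets of B4galt6 were called lower, with differences between -0.90 and -0.73. Ugcg, whose enzyme makes the glucosylceramide they act on, was not called: it read 2072 and 2430.3 in control and 1419 and 1873 in knockout arrays (-0.46, interval -0.82 to -0.09, adjusted p = 0.0731). Ugcg lay near the threshold, and without knockout replicate 2 or with the replicate number as a block it was called lower. The lowest probe set of each gene and the mean of all probe sets also gave that call.

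B4galt1, the galactosyltransferase of N-glycans and of lactose synthesis, went from 1369 and 1498 to 1059 and 967 (-0.50 ± 0.11, adjusted p = 0.0149). Both knockout arrays were lower, although the call was lost without control replicate 2 or knockout replicate 2, with adjusted p up to 0.105. B4galt3 rose from 315 and 372 to 440.3 and 473 (0.40 ± 0.11, adjusted p = 0.0443). That call was lost without any 1 of the 4 arrays (differences of 0.28 to 0.51) and under quantile normalization. The weaker probe set of B4galt3 gave 0.16 ± 0.11, not called. B4galt2, B4galt4 and B4galt7 were not called, with differences between -0.21 and 0.10. B4galt7 adds the first galactose of the proteoglycan linker.

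B3galt6, whose enzyme adds the next galactose of that linker, rose from 178 and 166 to 316 and 288 (0.76 ± 0.10, adjusted p = 0.00304). Its other probe sets gave -0.12 ± 0.12 and 0.21 ± 0.11, neither called, so the rise was seen with 1 of 3 probe sets. B3galt4, the ganglioside enzyme that makes GM1 from GM2, went from 176 and 180.1 to 134 and 135. Replicates were close in both groups (-0.36 ± 0.09, adjusted p = 0.0297), but the call was lost without any 1 of the 4 arrays (adjusted p 0.0647 to 0.154). B3galt5, which makes type 1 chains, read 185 and 219 in control and 154 and 162 in knockout arrays. It did not pass (-0.32, interval -0.59 to -0.06, adjusted p = 0.0821), and neither did B3galt1 (-0.26) nor B3galt2 (0.32, interval 0.03 to 0.62), which was called higher without knockout replicate 2 (adjusted p = 0.0436).

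Of 9 genes with Fut symbols, Fut4 and Fut8 fell and none rose (22.2% and 0%, beside 10.9% lower and 13.4% higher over all genes). Fut4, which adds fucose to form the Lewis x structure, read 1105 and 938 in control and 672 and 682 in knockout arrays. Both knockout arrays were lower (-0.58 ± 0.11, adjusted p = 0.0108), but the call was lost without control replicate 1 (-0.46). The weaker probe set of Fut4 gave -0.36 ± 0.12, not called. Fut8, the core fucosyltransferase of N-glycans, went from 562 and 589 to 458 and 449 (-0.33 ± 0.10, adjusted p = 0.0431). Its second probe set gave -0.45 ± 0.10 and its dimmest 0.07 ± 0.10, and the call was lost without any 1 of the 4 arrays (adjusted p 0.102 to 0.215). Fut2, the secretor enzyme that makes the H antigen in gut epithelium, read 306 and 406 in control and 347 and 383 in knockout arrays. Its groups overlapped, with an interval of -0.29 to 0.39.

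Fut11 was not called by its brightest probe set (-0.21, interval -0.52 to 0.10), but its other 2 probe sets were called higher over all probe sets. They went from 152 ± 17.3 to 222 ± 10.5 (0.51 ± 0.11) and from 129 ± 6.20 to 197 ± 1.87 (0.56 ± 0.10). Fut7, known from leukocytes for sialyl Lewis x, gave -0.21, Fut10 -0.04 and Fut4-ps1 -0.08. Fut1 and Fut9 were dim, at 43.4 to 58.1.

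Sialyltransferases end chains with sialic acid, and of 20 measured 4 fell and none rose. The shares were 20% and 0%, beside 10.9% lower and 13.4% higher over all genes. Of 6 St3gal genes, whose enzymes cap galactose, 3 fell. St3gal4, which acts on lactosamine chains, read 442 and 565 in control and 119 and 156 in knockout arrays. The highest knockout value was well below the lowest control value (-1.76 ± 0.16, adjusted p = 0.000982). St3gal4 had no further probe set to set beside this one. St3gal6, of related specificity, read 897 and 1054 in control and 537 and 437 in knockout arrays (-0.98 ± 0.14, adjusted p = 0.00329). Here knockout replicate 2 was the lower one. The other 4 probe sets of St3gal6 gave -1.22, -0.56, -0.33 and -0.02, of which the first 2 were called and the last lay at 8.02 to 8.82, under background.

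St3gal2, an enzyme of core 1 O-glycans and gangliosides, went from 92.2 and 104 to 62.1 and 59.4 (-0.57 ± 0.10, adjusted p = 0.00805). This was lost without control replicate 2 (adjusted p 0.063), and its 2 dimmer probe sets gave 0.24 ± 0.11 and 0.18 ± 0.14, so its direction depends on the probe set. St3gal1, St3gal3 and St3gal5, the last of them the GM3 ganglioside synthase gene, were not called. St3gal5 read 123 and 139 in control and 110.4 and 134 in knockout arrays, with overlapping groups (interval -0.38 to 0.20).

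The St6galnac enzymes put sialic acid on GalNAc, and of 6 measured St6galnac3 fell. It went from 65.7 and 63.3 to 45.7 and 46.7, levels not far above the Bacillus medians (-0.37 ± 0.09, adjusted p = 0.0282). The call was lost without any 1 of the 4 arrays (adjusted p 0.0587 to 0.150), and its weaker probe sets gave 0.05 and -0.04. St6galnac1, which makes the sialyl-Tn structure of mucins, read 121 and 142 in control and 111 and 128 in knockout arrays, with overlapping groups (interval -0.40 to 0.16). St6galnac2 gave -0.20 (interval -0.43 to 0.03), and St6galnac4, St6galnac5 and St6galnac6 lay between -0.03 and 0.15.

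St6gal1, which puts sialic acid on N-glycan galactose, read 79.8 and 92.5 in control and 64.9 and 86.1 in knockout arrays (interval -0.49 to 0.16), and St6gal2 was dim. None of the 6 St8sia genes was called, with differences between -0.21 and 0.08 at intensities of 62.7 to 152. Their enzymes extend sialic acid with further sialic acid, as in the GD3 ganglioside by St8sia1 and in polysialic acid by St8sia2 and St8sia4.

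**Figure D3:**
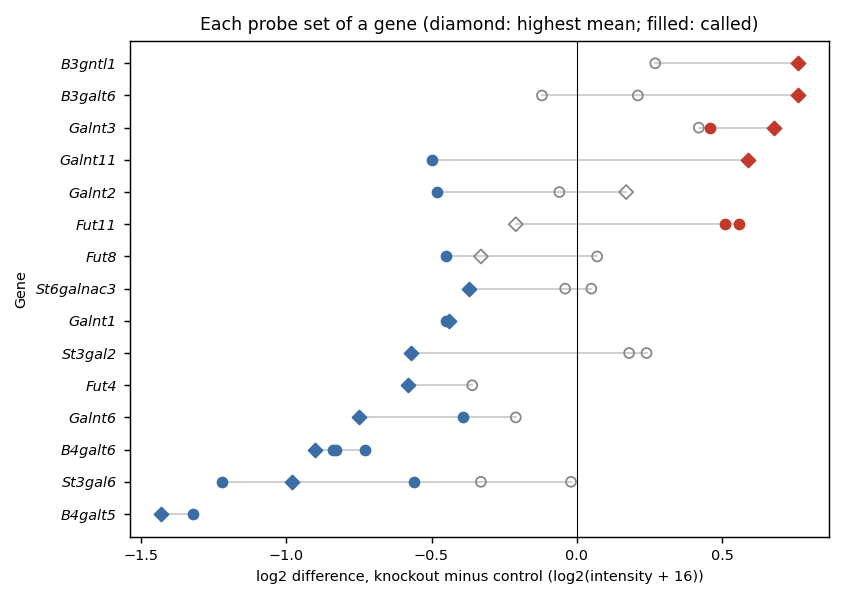
log2 difference (knockout minus control) of each probe set of the 15 genes that have several probe sets and at least 1 called over all probe sets; diamonds mark the brightest probe set and filled symbols those called. B4galt5, B4galt6, Galnt1, Galnt3, Galnt6, Fut4, St3gal6 and B3gntl1 have all symbols on 1 side of 0. Galnt11, Fut11, Galnt2, St3gal2, B3galt6, Fut8 and St6galnac3 have symbols on both sides.

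Probe sets of 1 gene thus did not always move together. Of the 18 called genes 14 had several probe sets. In 7 of these another probe set was called the same way, and in 1, Galnt11, the opposite way. Of all 82 further probe sets of the 72 genes, 11 were called lower and 3 higher. The share called among all probe sets was not counted, so these numbers have no background beside them. Among genes not called, Fut11 and Galnt2 had another probe set called. Over all probe sets, where more tests were adjusted for, the brightest probe sets of Fut8 and B4galt3 missed the threshold, with adjusted p of 0.0529 and 0.0515.

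Among genes of other glycan steps, more fell than rose. Of 87 genes listed for these steps 75 were measured, with a median log2 difference of -0.16. Of these 17 fell and 4 rose (22.7% and 5.33%, beside 10.9% and 13.4% of all genes). The lists were written with earlier results of these data known, so the shares describe the listed genes and test nothing. Mucin backbones held 4 falls among 10 measured. The brush border mucin gene Muc3 fell from 7601 ± 235 to 5292 ± 826 (-0.53 ± 0.13) and the membrane mucin gene Muc4 from 890.0 ± 7.13 to 391 ± 98.2 (-1.18 ± 0.16). Muc20 (-0.37 ± 0.11) and Muc5ac (-0.35 ± 0.09), both at lower intensities, fell too. Muc2, the goblet mucin gene, was not called (-0.26, interval -0.54 to 0.01).

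The list for supply of activated sugars, which also holds the breakdown gene Npl, had 6 falls and no rise among 31 measured genes. Npl, which breaks down free sialic acid, fell by 3.71 ± 0.19 on the log2 scale, and the GlcNAc kinase gene Nagk went from 945 ± 58.5 to 441 ± 16.6 (-1.07 ± 0.10). The Golgi transporter gene Slc35c2 (-1.17 ± 0.11), the mutarotase gene Galm (-0.78 ± 0.11), the mannose phosphate isomerase gene Mpi (-0.75 ± 0.11) and Ugp2 (-0.42 ± 0.11), which makes UDP-glucose, also fell. The sialic acid synthesis genes Gne (0.09, interval -0.21 to 0.40), Nans (-0.06, interval -0.28 to 0.16) and Cmas (0.27, interval 0.04 to 0.50, adjusted p = 0.0877) were not called. Neither was Slc35a1, the carrier of CMP-sialic acid into the Golgi (0.29, interval 0.03 to 0.54).

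**Figure D4:**
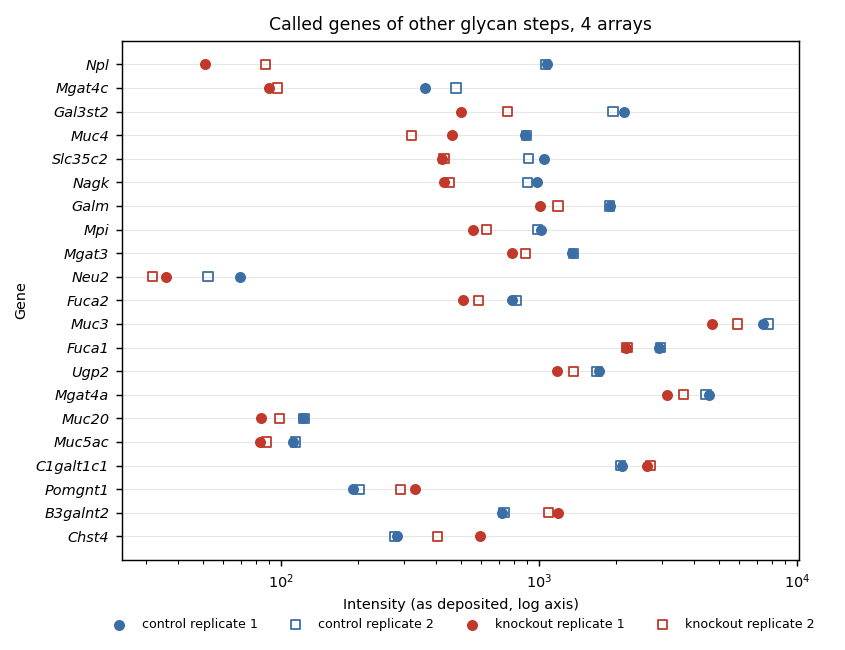
Intensity on a log axis of the 21 called genes of other glycan steps in each of the 4 arrays, with control arrays in blue, knockout arrays in red, circles for replicate 1 and open squares for replicate 2. For 17 genes both red symbols lie left of both blue ones and for C1galt1c1, Pomgnt1, B3galnt2 and Chst4 right of them.

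N-glycan branching held 3 falls among 8 genes: Mgat4c from 421 ± 80.5 to 93.8 ± 4.92 (-1.98 ± 0.14), Mgat3, which adds the bisecting GlcNAc (-0.68 ± 0.10), and Mgat4a (-0.41 ± 0.11). Among 8 sulfotransferase genes Gal3st2 fell from 2045 ± 149 to 628 ± 185 (-1.71 ± 0.19) and Chst4 rose (0.78 ± 0.17). Mouse Gal3st2 has near-identical copies that its probe set may not separate. Of 5 sialidase and fucosidase genes Fuca1 (-0.43 ± 0.09), Fuca2 (-0.55 ± 0.11) and Neu2 (-0.62 ± 0.13, from 61.0 to 34.0, at background) fell. Other core and capping genes held 3 called rises and no called fall among 13, with a median log2 of -0.02. The rises were C1galt1c1, the chaperone of the core 1 enzyme (0.35 ± 0.09), and Pomgnt1 (0.62 ± 0.11) and B3galnt2 (0.63 ± 0.10), both of O-mannose chains. B4galnt1 (-0.33, interval -0.59 to -0.07) and B4galnt2 (-0.29, interval -0.53 to -0.05) were not called. Both were called lower when 64 was added to the intensities instead of 16. Ugcg and the dim Ugt8a also had intervals under 0. C1galt1, the core 1 enzyme gene itself, read 1529.6 and 1682 in control and 1857 and 1754 in knockout arrays (0.17, interval -0.07 to 0.41).

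For these 75 genes, leaving out an array gave 9 lower and 2 higher genes when it was control replicate 1 and 10 and 2 when it was control replicate 2. Omission of knockout replicate 1 left 10 and 3, while omission of knockout replicate 2 gave 17 and 4, of which 15 and 3 were also called with all arrays. Ugcg and B4galnt1 (lower) and B4galnt4 (higher) were called in that fit and not with all arrays. C1galt1c1 and Muc5ac were lost in all 4 of these fits (adjusted p 0.0597 to 0.177), Chst4 without either control array (0.0671 and 0.0762), and Neu2 without control replicate 1 or knockout replicate 2 (0.0872 and 0.0559). Muc3, Muc20, Mgat4a, Ugp2, Fuca1 and Fuca2 were lost without control replicate 1, control replicate 2 or knockout replicate 1, with adjusted p of 0.0505 to 0.181.

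Markers of some cell types differed between the groups, and in bulk samples fewer cells of a type and less RNA per cell cannot be told apart. Of 16 measured enterocyte markers 11 fell and none rose. The summed intensity of that list was 110339 to 111713 in control and 55408 and 80899 in knockout arrays. As a mean of log2 values it lay 1.53 below controls in knockout replicate 1 and 0.84 below in knockout replicate 2. Of 7 dividing cell markers 6 rose (11876 to 12095 in control, 17514 to 17526 in knockout arrays), 5 of 9 tuft cell markers fell (1901 to 2013 against 1381 to 1516), and 3 of 13 goblet markers fell (68591 to 72304 against 58161 to 65255). Other lists shifted less by their median log2. Of 6 genes listed as Paneth cell markers Mmp7 rose and Guca2b fell (median -0.02). Against the control mean Guca2b read -1.21 in knockout replicate 1 and -0.49 in replicate 2, lower in replicate 1 as the enterocyte list was. The cell type behind its fall was not tested. Of 12 enteroendocrine markers 2 rose and 3 fell (median -0.04). Among 9 stem cell markers (median -0.10) Olfm4 fell (-0.62 ± 0.10). The summed intensity of the stem cell list was 11466 and 11334 in control and 9558 and 8903 in knockout arrays. Of 12 leukocyte markers 2 fell, with sums of 1857 and 1936 in control and 1519 and 1666 in knockout arrays, and Adgre1, Cd79a and Itgam were under 64 in all 4. Of 13 mesenchyme and vessel markers 2 fell, with sums of 1948 and 2123 in control and 1881 and 1727 in knockout arrays, and Acta2 and Lum were under 64 in all 4. Both of these sums were lower in each knockout array than in either control array.

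**Figure D5:**
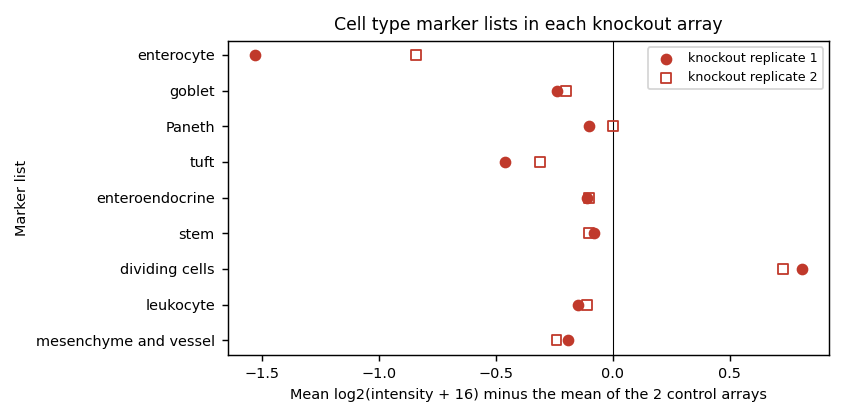
Mean log2(intensity + 16) of each cell type marker list in each knockout array minus the mean of the 2 control arrays, with a filled circle for knockout replicate 1 and an open square for knockout replicate 2. Enterocyte markers were lower by 1.53 and 0.84, and dividing cell markers were higher by 0.81 and 0.73.

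The knockout arrays also differed from each other in some glycosyltransferases. Against the control mean, B4galt5 (-1.60 in knockout replicate 1, -1.25 in replicate 2), B4galt6 (-1.11, -0.70), Galnt6 (-0.93, -0.57) and St3gal4 (-1.93, -1.58) read lower in replicate 1, while St3gal6 (-0.84, -1.12) read lower in replicate 2. Of the 13 lower members 7 lay further from the control mean in knockout replicate 1, as did 4 of the 5 higher members. Some were nearly even, such as Galnt1 (-0.44 in both). With 2 arrays a group, no order between the knockout arrays was tested. RNA quality also moved with the groups: for Gapdh, control probe sets at the 3' end exceeded those at the 5' end on the log2 scale by 1.44 and 1.39 in control and 1.70 and 1.64 in knockout arrays, and for Actb by 0.278 and 0.241 against 0.330 and 0.294. The part of cell type markers and of RNA quality in the differences of the glycosyltransferases was not tested.

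Some members lie next to each other on the chromosome, and no difference between neighbours was tested. In the RefSeq gene order 5 pairs of members had no other protein-coding gene between their starts. In 3 of them, Galnt7 with Galntl6, St6galnac1 with St6galnac2 and St6galnac4 with St6galnac6, neither gene was called. Galnt11, called higher with its brightest probe set and lower with its other one, adjoins Galntl5, which was dim. St6galnac3, called lower, adjoins St6galnac5, which read 117 and 135 in control and 143 and 139 in knockout arrays (0.15, interval -0.10 to 0.40).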

How the data were processed

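Intensities, 1 linear value per probe set and array, were used as the authors deposited them; the summary method, background correction, scaling and genome build are not given in the sources used here. Total RNA, labelled with biotin, went onto Affymetrix arrays, per the labels' protocols. Of 45101 probe sets, 64 were array controls, 34945 matched 1 gene, 932 several and 9160 none; symbols came from GEO's platform annotation, updated by Entrez ID through RefSeq (GRCm38.p6) for 18032 of 18193 genes. Tests used limma 3.58.1 in R 4.3.3 (lmFit, eBayes; log2(intensity + 16); no filter, block or further scaling; 7.02 degrees of freedom) on all genes, and separately on all probe sets, with the step tested on simulated data. P-values rest on the spread among 2 arrays a group, which eBayes moderates with a variance pooled over all genes. The number of arrays limits the precision. Members, lists and alternatives were chosen with earlier results of these data known. Every called member was named, and of those not called up to 10 of the brightest, and known enzymes of gut mucin; others were named after their values were seen, as were the pathway genes not called. Same-numbered arrays deviated with r = 0.10 over genes. Motif matches and 95% intervals were computed by script.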

Additional observations from a re-analysis of the deposited data

How the results depend on the processing

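The counts of 5 higher and 13 lower glycosyltransferases, and of 4 and 17 other glycan genes, stayed within 1.5 times under pseudocounts of 1 and 64, a mean of at least 64 over the 4 arrays, quantile normalization, centring on array medians and a trended and robust prior. They did so too when the highest mean log2 value chose the probe set, an alternative added after seeing the data. With the replicate number as a block, the counts were 5 and 13 members and 4 and 20 other genes. Choice of probe set moved more: with the lowest probe set of each gene 2 members were higher and 8 lower. With the mean of all probe sets 2 were higher and 10 lower. Over all genes 2442 were higher and 1992 lower in the main fit. The lowest probe set gave 1748 and 1516 over all genes, and the mean of all probe sets 2428 and 2018. The lowest probe set turned Galnt11 to -0.50, Fut8 to 0.07, St3gal2 to 0.18 and Fut11 to 0.56. Leaving out 1 array gave 3 to 5 higher and 7 to 9 lower members, and 2 to 4 higher and 9 to 17 lower other genes, with fewer samples in each fit and the lone array assumed to vary like the other group. B4galt5, B4galt6, St3gal4 and Galnt3 were called under all of these settings. B3gnt6 and St6galnac3 were not called with a pseudocount of 64 and were not tested in the fit restricted to means of at least 64; Fut8 was lost with a pseudocount of 1 and the trended prior, and B4galt3 with a pseudocount of 1 and quantile normalization. Signal near background limits B3gnt6, St6galnac3, Neu2 and the 9 dim members.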
